A study of Arabidopsis thaliana with 16 samples.

Results

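The 78 probe sets described here were high in both the endodermis and the stele of iron-deficient Arabidopsis thaliana roots and low in the 3 other sorted populations. They were picked from 22746 probe sets that are not controls, of which they make up 0.343%. The choice used the mean signals themselves. A probe set had to average at least 200 on the linear scale in endodermis and in stele, and the lower of these means had to be at least 3 times the highest mean among cortex, columella and epidermis. Both means reached 200 for 5946 probe sets, and 1.31% of those also met the ratio. The difference between the pair and the other populations was therefore fixed by the choice, and it is given below as a description without a test.

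The endodermis is the innermost layer of the ground tissue, and its Casparian strips seal the space between cells against free passage of ions toward the vascular tissue. The stele lies inside it and holds the pericycle, where lateral roots start, together with the xylem and phloem that carry water, ions and sugars along the root. Nutrients such as iron pass through the endodermis before they are loaded into the xylem.

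The series measured how transcript levels differ between cell types of roots short of iron. All samples were of ecotype Columbia, from seedling roots aged 6 days that then spent 24 h on medium in which 0.3 mM Ferrozine, a chelator of ferrous iron, replaced the iron salt. Roots were turned into protoplasts, and fluorescent cells were sorted out by their reporter of green fluorescent protein. The reporter was SCR::GFP for endodermis with quiescent center (3 arrays), WOL::GFP for stele (3 arrays), CORTEX for cortex (3 arrays), PET111 for columella (3 arrays) and WER::GFP for epidermis with lateral root cap (4 arrays). Each population is thus the set of cells in which that reporter was active, and the endodermis samples include the quiescent center and the epidermis samples the lateral root cap. Every array came from roots without iron, and arrays of roots with iron were not analysed here, so the values are levels under iron deficiency and not responses to it. In such sorted samples, fewer cells of a type and less RNA per cell cannot be told apart.

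The values are MAS5 signals, a measure of probe brightness on a linear scale, and the 2% trimmed mean of every array was 250.0. Correlations of log2 signals between arrays of 1 population were 0.894 to 0.981, and between arrays of different populations 0.639 to 0.878. Those between endodermis and stele arrays were 0.840 to 0.878. The labels were checked against 39 marker genes, of which the array annotation named 12, none of them listed at 0. Not all followed their label. GSO1, a receptor kinase needed for closed Casparian strips and the 1 endodermis marker named of 8, had 4447 to 5956 in endodermis arrays, against 426.7 to 839.6 in stele arrays and 946.9 to 1285 in cortex arrays. None of the 9 stele markers was named, so the stele label could not be checked in this way. The summed cortex markers, 4 of 5 named, reached 266.8 to 410.5 in endodermis arrays and 242.5 to 326.5 in stele arrays, against 2794 to 4804 in cortex arrays. PMEPCRF made up most of the cortex sum, with a mean of 2639 in cortex, while AT1G62500 averaged 12.9 in cortex and 26.8 in endodermis. Of the epidermis and root hair markers, EXPA7 averaged 386.3 in cortex and 335.2 in epidermis, and EXPA18 314.7 in stele, 323.8 in cortex and 340.3 in epidermis. Of the other named markers, all but AT4G04460 were highest under their own label. ATMYC1 averaged 718.2 in epidermis and 157.8 in cortex, the next highest mean, and TRY was also highest in epidermis. The quiescent center marker AGL42 averaged 237.8 in endodermis and 138.3 in cortex. AT1G09750 and UGT84A1 averaged 835.6 and 203.5 in cortex, against 56.9 and 13.7 in endodermis. AT1G65570, a root cap and columella marker, averaged 7529 in columella, 2012 in epidermis, 385.8 in endodermis and 63.5 in stele. Its endodermis arrays had 208.1, 177.1 and 772.2. AT4G04460, the other one named, was highest in stele with a mean of 1793. It averaged 1594 in epidermis, 705.0 in columella and 271.3 in endodermis. The part of these in the members' signals was not tested.

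All 78 probe sets passed the filter on low signals, but they did so through their endodermis and stele arrays, which the rule had made high. The annotation gave 1 gene for 46 of them and none for 32, and 59.0% with 1 gene is close to the 59.4% over all probe sets. Of the 46 genes, 10 have a symbol and 36 only a locus tag. No member was a probe set with several genes, and 1 carried the suffix that marks probes shared by several transcripts.

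Mean signals of the members had a lowest value of 207.6, a median of 614.9 and a highest value of 12008 in endodermis. In stele these were 204.2, 621.7 and 7743. The medians in the other populations were 94.9 in cortex, 110.5 in columella and 24.6 in epidermis. The members thus span a wide range of signal, and 19 of the 78 averaged at least 1000 in both endodermis and stele.

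**Figure D1:**
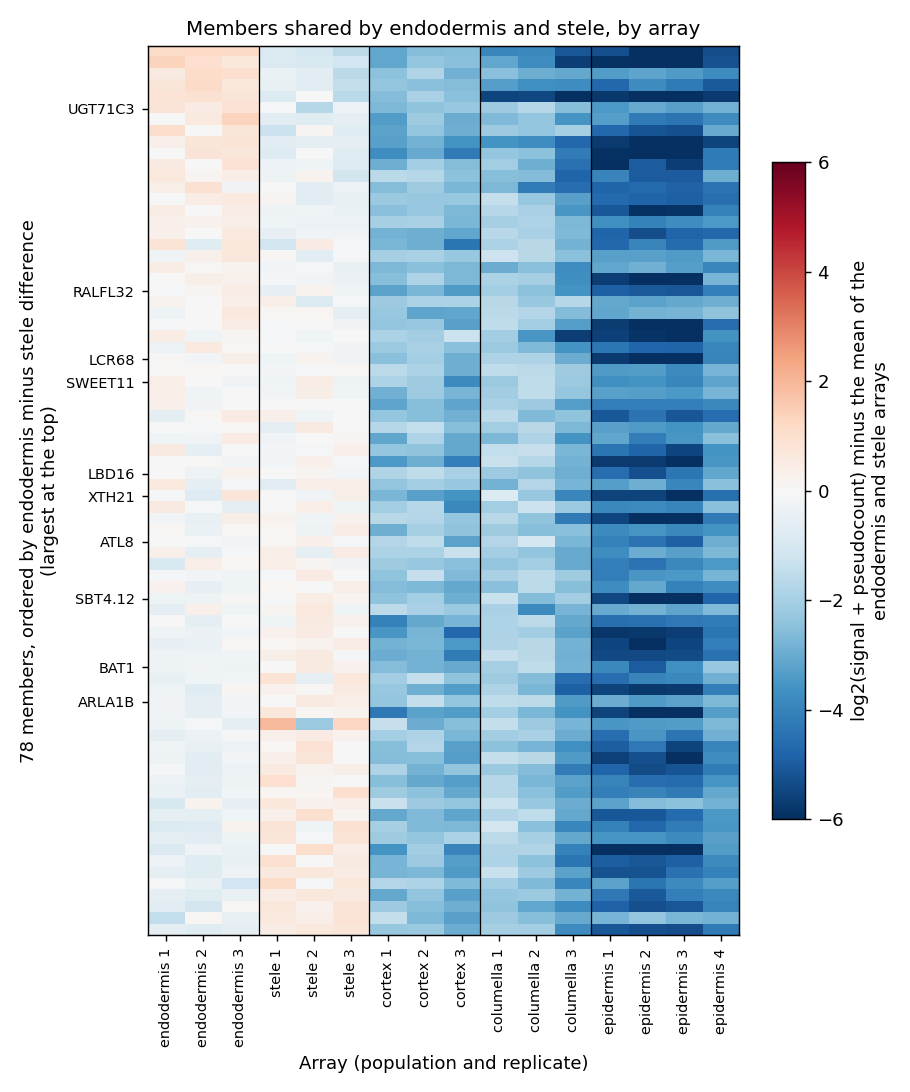
Log2 signal of the 78 members (rows) in each of the 16 arrays (columns, by population) minus the mean of the row's endodermis and stele arrays, with colours limited to -6 to 6 and values beyond drawn at the limit. The endodermis and stele columns are high by the choice of members, and the epidermis columns are the lowest for 77 of 78 by their means.

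The ratio of the lower pair mean to the next population ran from 3.03 to 7.62 with a median of 3.78. It was at least 4 for 34 members, at least 5 for 12 and at least 6 for 2. The next population was the columella for 49 members and the cortex for 29, and never the epidermis. Just inside the threshold lay AT1G49740 at 3.07, AT2G04795 at 3.05 and AT2G44300 at 3.03. Just outside it were the probe sets 266798_at at 2.98 and 256128_at at 2.97, which have no gene in the annotation, and AT1G03920 at 2.95. The rule therefore divides a continuous range of ratios. On the signal minimum, TET5, a tetraspanin membrane protein, was left out with a stele mean of 187.9 although its ratio was 4.20, while 245550_at was kept with a stele mean of 204.2.

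Every endodermis and stele array lay above every other array for 76 of the 78, against 3.17% of all probe sets tested. That contrast chose the members, so nothing is read from the count. The exceptions were 255433_at, whose lowest endodermis array had 104.8 beside a cortex array at 107.6, and 253056_at, whose stele replicate 2 had 52.2 beside 1091 and 667.5 in the other stele arrays. The same rule run on the other pairs of populations gave 140 probe sets for columella with epidermis, 38 for stele with columella, 31 for cortex with epidermis and 24 for endodermis with cortex. The remaining pairs gave 2 to 18.

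The 10 members with a symbol cover a signalling peptide, a defensin-like peptide, a sugar transporter, wall and extracellular enzymes, hormone-related and other enzymes, and regulators. Within the table their ratios ran from 3.17 to 5.45.

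RALFL32 encodes a peptide of the rapid alkalinization factor family, secreted peptides that act as signals at the cell surface. Its signal was 1641, 1982 and 2420 in endodermis arrays and 1232, 2012 and 1464 in stele arrays. Cortex arrays had 180.5, 251.1 and 158.9, columella arrays 418.0, 308.2 and 137.9, and epidermis arrays 49.4, 42.8, 40.5 and 93.8. Its ratio of 5.45 was the highest among the members with a symbol, and its endodermis and stele arrays overlapped.

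LCR68 encodes a small cysteine-rich protein of the plant defensin type. It had 5543, 4770 and 6675 in endodermis arrays and 4373, 6045 and 4551 in stele arrays, the highest signals of the members with a symbol. Cortex arrays had 911.0, 1280 and 684.3 and columella arrays 1446, 1433 and 654.8, whereas epidermis arrays had 87.4, 31.8, 32.7 and 319.7. Endodermis and stele arrays overlapped, and every cortex and columella array lay above every epidermis array.

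SWEET11 encodes a sugar transporter that exports sucrose from cells and is known for loading the phloem in leaves. Its signal was 670.2, 496.1 and 431.3 in endodermis arrays and 419.4, 684.2 and 404.5 in stele arrays. It was 131.1, 105.9 and 26.2 in cortex arrays, 101.3, 171.0 and 100.3 in columella arrays and 30.2, 32.7, 24.0 and 47.6 in epidermis arrays. The endodermis and stele ranges were nearly the same, and cortex replicate 3 lay among the epidermis arrays.

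XTH21 encodes a xyloglucan endotransglucosylase/hydrolase, which cuts and rejoins xyloglucan chains of the cell wall. Endodermis arrays had 1100, 665.4 and 1896 and stele arrays 1149, 991.4 and 1465. The columella arrays were spread from 646.2 and 233.2 to 67.3, so the highest of them lay just under the lowest endodermis array. Cortex arrays had 163.8, 111.6 and 84.9, and epidermis arrays 14.8, 14.4, 3.29 and 40.6. SBT4.12, a subtilase, one of a large family of secreted proteases, averaged 3076 ± 481 in endodermis, 3923 ± 731 in stele, 636.6 ± 190.7 in cortex, 899.2 ± 408.0 in columella (SD, n = 3 each) and 62.4 ± 43.0 in epidermis (SD, n = 4). Its endodermis arrays at 2782, 2815 and 3631 overlapped its stele arrays at 3258, 4707 and 3805.

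BAT1 encodes an acyltransferase that acts on brassinosteroids, the plant steroid hormones. It had 431.7, 462.7 and 430.5 in endodermis arrays, all below the 527.0, 772.7 and 646.5 of the stele arrays. In the other populations its arrays ran from 57.1 to 78.3 in cortex, from 64.7 to 178.9 in columella and from 6.56 to 102.0 in epidermis. UGT71C3 encodes a glycosyltransferase that attaches sugar to small molecules. Its endodermis arrays at 676.6, 560.0 and 713.9 all lay above its stele arrays at 367.3, 113.8 and 299.6. Stele replicate 2 was close to the highest columella array at 110.7.

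LBD16 encodes a transcription factor of the LATERAL ORGAN BOUNDARIES domain family that acts in auxin-dependent initiation of lateral roots. Its signal was 551.6, 458.6 and 671.7 in endodermis arrays and 577.4, 637.9 and 507.6 in stele arrays. The cortex followed with 153.0, 188.7 and 140.9, then the columella with 116.9, 96.6 and 65.9, and the epidermis was lowest with 13.6, 4.76, 18.3 and 55.0. Endodermis and stele overlapped, and the arrays of the other 3 populations formed ranges that did not overlap each other.

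ATL8, a RING protein of the ATL family of ubiquitin ligases, averaged 386.4 ± 20.0 in endodermis, 441.5 ± 72.0 in stele, 96.6 ± 53.6 in cortex, 120.2 ± 70.5 in columella (SD, n = 3 each) and 18.3 ± 17.9 in epidermis (SD, n = 4). ARLA1B, a small GTPase of the ADP-ribosylation factor-like group, had 307.7, 239.2 and 319.4 in endodermis arrays, all below 347.4, 517.4 and 468.4 in stele arrays. Its columella arrays at 116.3, 107.4 and 24.5 reached down to its epidermis arrays at 35.9, 24.5, 29.4 and 45.9.

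**Figure D2:**
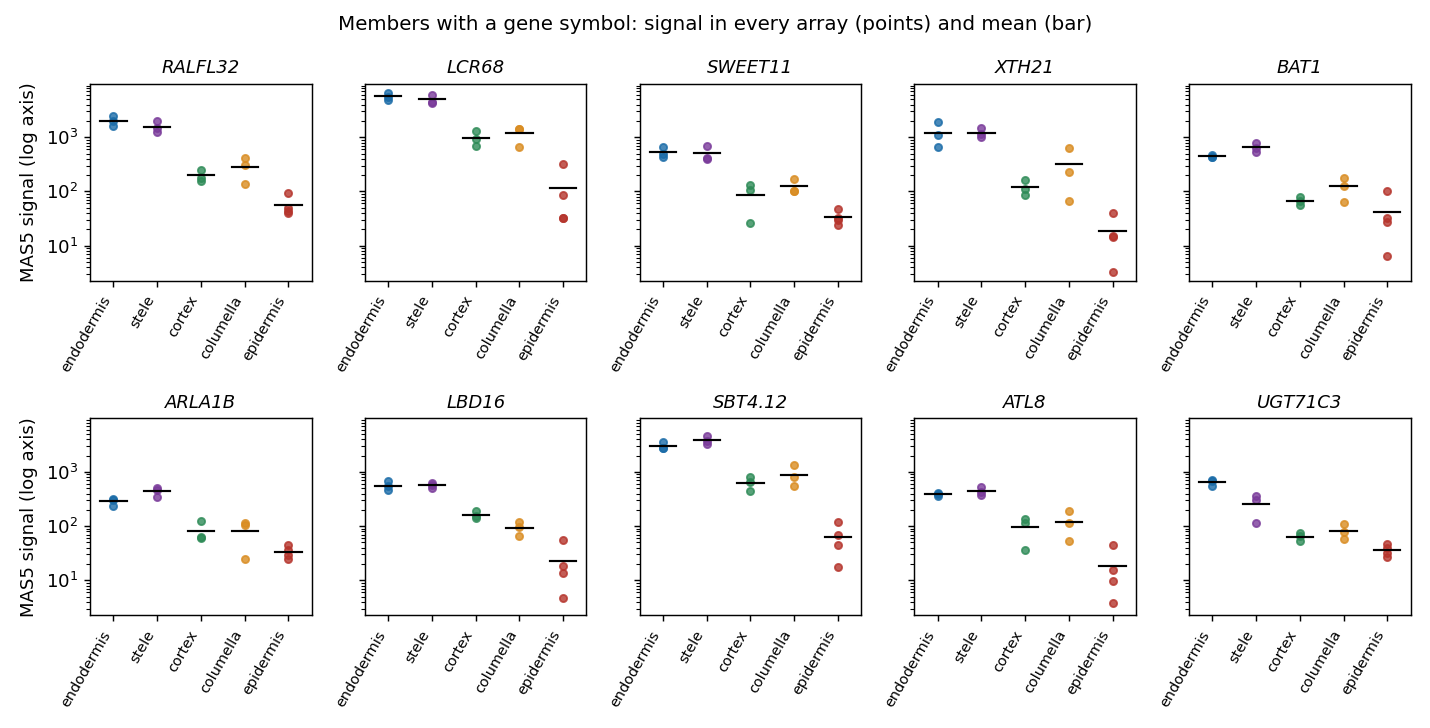
Signal of the 10 members with a gene symbol in each array on a log axis, a panel per gene, with a point per array and a bar at the population mean. Endodermis and stele points lie at the top by the choice of members, from 113.8 (UGT71C3, stele) to 6675 (LCR68, endodermis). They do not overlap each other for UGT71C3, BAT1 and ARLA1B, and the epidermis points are mostly lowest.

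The members known by locus tag alone include the highest ratio of all. AT3G15680 had a ratio of 7.62, with 171.0, 179.6 and 300.8 in endodermis arrays and 177.9, 215.4 and 233.2 in stele arrays, against 15.0 to 50.6 in cortex arrays, 7.98 to 50.4 in columella arrays and 2.22 to 28.1 in epidermis arrays. AT1G72230 was next with 6.18, averaging 3318 ± 612 in endodermis and 1415 ± 83 in stele (SD, n = 3 each). AT1G26450, AT4G24060, AT3G57880, AT4G11210, AT1G69580, AT2G47950 and AT1G69080 followed, with ratios from 4.74 to 5.63. The annotation gives these genes no name, so their products are not described.

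The remaining members known by locus tag that are not taken up below are AT3G28600, AT2G37050, AT1G55210, AT4G39675, AT5G03610, AT3G52920, AT1G12080, AT2G38240, AT5G58300 and AT3G56480. AT1G55210 and AT2G38240 had the highest endodermis means of these, 2400 and 2354, beside 1536 and 1055 in stele. AT5G03610 and AT4G39675 had the highest stele means, with 1438 and 866.5 in endodermis beside 2022 and 1769 in stele. AT3G52920 was the member of this group with most signal in epidermis, at 160.5 ± 12.9 (SD, n = 4), beside 1632 ± 243 in endodermis and 1324 ± 511 in stele (SD, n = 3 each). None of the 10 passed for endodermis minus stele.

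The 32 probe sets without a gene had endodermis means of 207.6 to 12008 (median 464.8), stele means of 204.2 to 7743 (median 526.7) and ratios of 3.12 to 5.38. Their medians were 68.4 in cortex, 88.8 in columella and 21.4 in epidermis. For the 36 genes known by locus tag the medians were 792.8 in endodermis, 732.2 in stele, 112.5 in cortex, 110.5 in columella and 25.9 in epidermis.

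Among all members the highest means in endodermis were those of 249227_at and 254226_at, which have no gene in the annotation. The probe set 249227_at averaged 12008 ± 861 in endodermis and 4224 ± 2211 in stele (SD, n = 3 each). Its cortex mean of 1356 ± 370 stood far above 124.8 ± 29.2 in columella (SD, n = 3 each). AT1G62480 had 9038, 5627 and 7395 in endodermis arrays and 6473, 5521 and 6757 in stele arrays, the highest means of the members with a gene.

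The rule asked for a minimum in both endodermis and stele and not for their order. It used both means, however, and it leaves out probe sets whose lower mean of the pair is close to another population. It sets no upper limit on the higher mean. The number and size of the differences are therefore given as a description of the members. The question is whether the members differ between the layer around the vascular cylinder and the cylinder itself. Of the 78, 8 were higher in endodermis and 6 were lower in endodermis than in stele, and 64 did not pass the test (limma on log2(signal + 10.21), Benjamini-Hochberg over 16221 probe sets, threshold 0.05). Over all probe sets tested, 14.6% were higher and 15.4% lower, 30.0% together. The background carries no condition on both means as the members do, so nothing is read from the 17.9% of members called beside it. The median difference of the members was -0.08 log2 units, against 0.02 over all tested, with a range from -1.23 to 2.33. The mean was higher in endodermis for 36 members and higher in stele for 42.

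The signals of the pair lay within 1.5-fold of each other for 39 members and more than 2-fold apart for 20, with a median of 1.51-fold. Endodermis and stele arrays did not overlap for 39 members, beside 45.7% of all probe sets tested. The median standard error of a member's difference was 0.40 log2 units, the smallest difference that passed was 0.97 and the largest that did not pass was 1.21, for AT2G38240 (adjusted p = 0.0637). The 64 members that did not pass are not shown to be equal. With 1 array fewer, 9 members passed without endodermis replicate 1, 2 or 3 or stele replicate 1, and 8 without stele replicate 3. Over all probe sets 2369 were higher and 2503 lower with all arrays. Without stele replicate 3 these were 1588 and 1844, and they also fell in the other runs named. With a constant of 1 in place of 10.21 the number of members was 8, and with 50 it was 25. Over all probe sets 2090 were higher and 2365 lower with 1, and 2600 and 2621 with 50.

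AT2G22620 had the largest difference. Its endodermis arrays at 1798, 1919 and 1828 lay far above its stele arrays at 438.4, 389.9 and 273.0, a log2 difference of 2.33 (SE 0.33, adjusted p = 9.21e-05). AT4G11190 followed with 3106, 2508 and 1949 in endodermis arrays against 671.1, 643.5 and 545.8 in stele arrays (log2 difference 1.99, SE 0.48, adjusted p = 0.0053). For both genes every endodermis array was above every stele array.

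AT1G61240 had 682.2, 1010 and 959.6 in endodermis arrays and 361.5, 304.4 and 148.5 in stele arrays, a log2 difference of 1.74 (adjusted p = 0.000859). UGT71C3 was the 1 member with a symbol that passed. It was 2.69-fold higher in endodermis on the scale of the test (log2 difference 1.43, SE 0.34, adjusted p = 0.00458). The probe sets 259439_at and 249227_at were also higher in endodermis, by 1.69 and 1.64 log2 units.

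AT5G35580 had 1113, 1657 and 2821 in endodermis arrays against 699.5, 656.9 and 736.8 in stele arrays, with a log2 difference of 1.30 (adjusted p = 0.0169). Replicate 3 was the highest of its endodermis arrays, and without it the difference was 0.95 with an adjusted p of 0.10. AT1G72230 passed narrowly, with 2625, 3549 and 3781 in endodermis arrays and 1320, 1476 and 1450 in stele arrays (log2 difference 1.21, adjusted p = 0.0438), and in 13 of 24 other settings.

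The 6 members that were lower in endodermis had log2 differences from -1.23 to -0.97. AT3G48970 had 295.2, 250.0 and 315.1 in endodermis arrays, all below 594.5, 688.9 and 630.7 in stele arrays (log2 difference -1.13, SE 0.30, adjusted p = 0.0092). AT3G59370 had 393.0, 296.5 and 666.8 in endodermis arrays against 1045, 769.6 and 1090 in stele arrays (log2 difference -1.14, adjusted p = 0.0302). In AT1G49740 the arrays had 281.3, 255.2 and 348.5 in endodermis and 640.5, 672.9 and 580.6 in stele (log2 difference -1.08, adjusted p = 0.0461). The other 3, 259149_at, 255433_at and 260385_at, have no gene in the annotation and log2 differences of -1.23, -1.21 and -0.97. AT1G49740 passed in 13 and AT3G59370 in 19 of 24 other settings of the processing or subsets of the arrays.

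**Figure D3:**
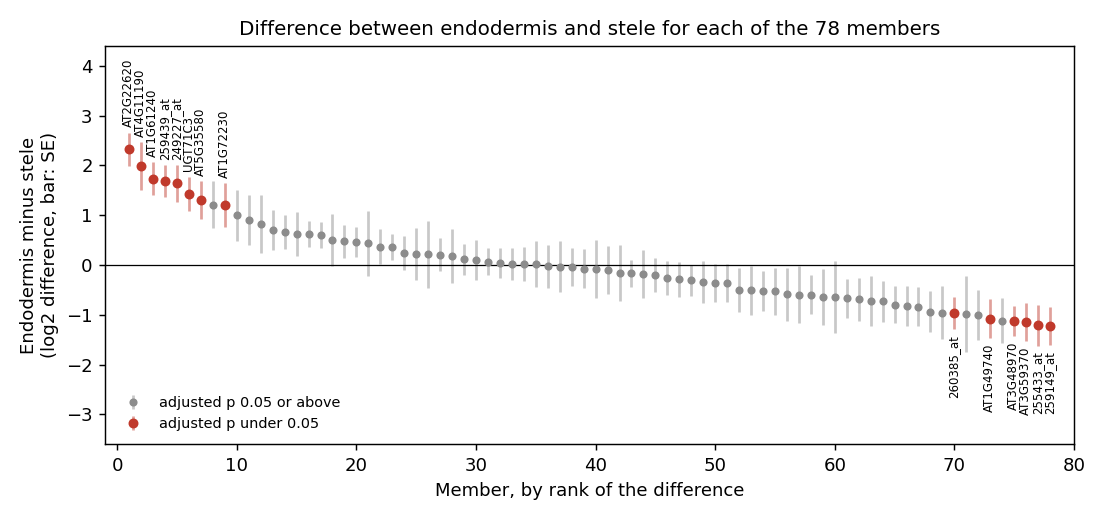
Endodermis minus stele log2 difference with its SE for the 78 members in order of rank, coloured by whether the member passed at an adjusted p of 0.05. The differences run from -1.23 to 2.33, 14 members passed, and the median over all 78 was -0.08. AT2G38240 (1.21) and AT3G56480 (-1.12), among others, did not pass, although each was larger than a difference that did.

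The other 9 members with a symbol did not pass. Their log2 differences were 0.37 for RALFL32, 0.18 for LCR68, 0.10 for SWEET11, -0.04 for LBD16, -0.09 for XTH21, -0.18 for ATL8, -0.34 for SBT4.12, -0.53 for BAT1 and -0.60 for ARLA1B. BAT1 and ARLA1B had endodermis arrays that were all below the stele arrays, and their adjusted p-values were 0.421 and 0.272. The smallest differences among all members with 1 gene were those of AT3G15680, AT3G47540, AT1G43910 and AT4G33420. AT4G33420, for instance, had 1111, 1135 and 974.9 in endodermis arrays and 962.0, 1330 and 1031 in stele arrays.

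Some members lie next to each other on a chromosome by the order of genes in the RefSeq assembly TAIR10.1. AT4G11190 and AT4G11210 have 0 protein-coding genes between them. AT4G11190 was higher in endodermis, as given above, while AT4G11210 had 1708, 1261 and 2240 in endodermis arrays against 2522, 2213 and 3006 in stele arrays, a log2 difference of -0.60 that did not pass. The estimates for these neighbours thus had opposite signs. That of AT4G11210 had an SE of 0.57, its endodermis and stele arrays overlapped, and the difference between the neighbours was not tested. AT3G45680 and AT3G45700 have 1 protein-coding gene between them, AT3G45690, which was not a member and had means of 36.4 in endodermis and 17.3 in stele. AT3G45710, beyond AT3G45700, was not a member either, with its highest mean of 909.3 in cortex.

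A second question is how the members are ordered among cortex, columella and epidermis, since the highest of these 3 means entered the ratio and their order did not. All 3 means bear on the choice through that maximum, and the members passed the low-signal filter without their epidermis arrays, so the counts below describe the members and nothing is read from them beside the shares of all probe sets. The epidermis was lowest for 77 of the 78 members, the exception being 251940_at with means of 24.1 in cortex and 24.7 in epidermis. Of the epidermis means, 55 lay below 38.05, the 40th percentile of the table, as did 7 columella means and 5 cortex means. In the cortex minus epidermis comparison 67 members were higher in cortex, 0 were lower and 11 did not pass. Over all probe sets 21.4% were higher and 26.4% lower. In columella minus epidermis 63 members were higher in columella, 0 were lower and 15 did not pass, beside 23.8% and 21.8% over all probe sets.

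The members' median log2 difference was 1.70 for cortex minus epidermis, against -0.10 over all probe sets, and 1.64 for columella minus epidermis, against 0.01. Both comparisons share the epidermis arrays, and the low epidermis signals make the log2 values depend on the constant added. Every cortex and columella array lay above every epidermis array for 37 members, or 47.4%, beside 7.45% of all probe sets tested. With epidermis replicate 4 set aside the count was 60. The share over all probe sets was not computed for that case, so nothing is read from the rise.

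SBT4.12 is an example at high signal, given as a description like the counts above. Its cortex arrays had 646.1, 822.4 and 441.4 and its columella arrays 1349, 552.9 and 795.7, against 68.5, 17.3, 44.9 and 118.7 in epidermis arrays. The log2 difference was 3.32 for cortex minus epidermis and 3.76 for columella minus epidermis. LCR68 differed by 3.43 and 3.68 in the same comparisons, and LBD16 by 2.57 for cortex minus epidermis. UGT71C3 did not pass for cortex minus epidermis, with a log2 difference of 0.68 and an adjusted p of 0.0857. ARLA1B did not pass for columella minus epidermis, with 0.89 and 0.0604.

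Cortex and columella themselves were split. In cortex minus columella 6 members were higher in cortex, 6 were lower and 66 did not pass, so 15.4% were called, where 22.2% of all probe sets were higher and 27.3% lower. The member median was -0.05, against -0.14 over all tested. After quantile normalization 11 were higher and 6 lower. Without columella replicate 3 the counts were 3 higher and 16 lower, without columella replicate 1 they were 12 and 0, and 7 members in all passed without cortex replicate 3 and 20 without epidermis replicate 4. The probe set 249227_at differed most, with 1094, 1780 and 1194 in cortex arrays against 141.4, 141.8 and 91.1 in columella arrays (log2 difference 3.33, adjusted p = 9.06e-07). AT1G62480 with 1.97, AT2G22620 with 1.54 and AT4G11190 with 1.51 were also higher in cortex, as were 250695_at and 259439_at. AT2G22620, AT4G11190, 259439_at and 249227_at were thus higher in endodermis than in stele and higher in cortex than in columella.

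Lower in cortex than in columella were AT4G33420, AT1G31050 and AT3G11930, with log2 differences of -1.53, -1.36 and -1.29, and 248855_at, 251940_at and 246962_s_at. AT4G33420 had 89.9, 135.3 and 54.1 in cortex arrays against 424.5, 325.9 and 143.6 in columella arrays, without overlap. AT1G31050 is the 1 member gene with another probe set on the array. That probe set, 265159_at, had means of 115.5 in endodermis, 86.6 in stele, 13.9 in cortex, 22.3 in columella and 2.90 in epidermis, below the signal minimum of the rule.

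**Figure D4:**
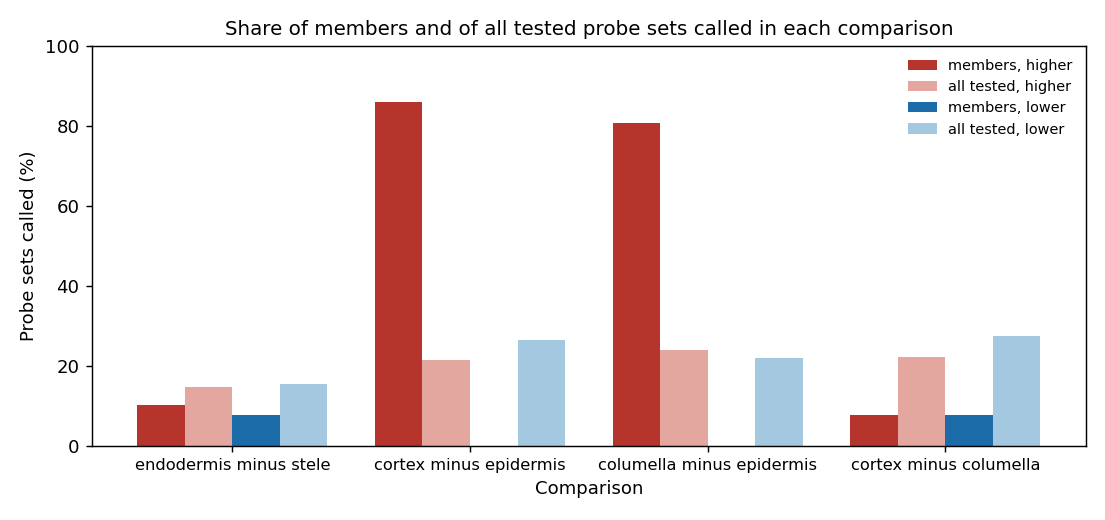
Percent of the 78 members (dark bars) and of all 16221 probe sets tested (pale bars) that were higher (red) or lower (blue) in each of 4 comparisons between populations. Of the members 85.9% were higher in cortex and 80.8% higher in columella than in epidermis with 0 lower. Over all probe sets tested these shares were 21.4% and 23.8% higher. Between endodermis and stele 10.3% of the members were higher and 7.69% lower, against 14.6% and 15.4% over all tested. The choice of members bears on these shares, so nothing is read from them.

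Among arrays of the same population, 2 stood apart over these members. Epidermis replicate 4 had a member median of 41.7, against 20.6, 17.1 and 15.2 in replicates 1 to 3, and it was the highest epidermis array for 67 members, or 85.9%, beside 35.7% of all probe sets tested. Over the members its median ratio to the mean of replicates 1 to 3 was 2.52. In the same array the named endodermis marker GSO1 had 110.7, against 49.8, 48.8 and 43.8 in the other epidermis arrays, and the summed cortex markers 198.2, against 115.7, 67.4 and 74.3. The 4 named epidermis and root hair markers of 8 summed to 926.4 there, against 1858, 1722 and 1308, and the 2 named root cap and columella markers of 6 to 7138, against 3045, 1542 and 2695. The part of these in the members' epidermis signals was not tested. Without epidermis replicate 4, 70 members were higher in cortex than in epidermis and 66 higher in columella than in epidermis. Calls over all probe sets rose as well, from 3469 to 3841 higher in cortex and from 3867 to 4060 higher in columella.

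Columella replicate 3 had a member median of 56.6, against 128.9 and 133.2 in replicates 1 and 2, and it was the lowest columella array for 71 members, or 91.0%, beside 33.3% of all probe sets tested. Its GSO1 signal was 51.6, against 79.8 and 106.0, and its summed cortex markers 60.8, against 110.0 and 102.2. Its root cap and columella markers summed to 8426, against 7632 and 8643. Most of that sum was AT1G65570, with 7878 against 6916 and 7792, while AT4G04460 had 548.2 against 716.0 and 850.8. The part of these in the columella signals of the members was likewise not tested. Since the columella was the next population for 49 members, this array bears on the choice itself. Without it 56 probe sets met the rule, and without columella replicate 1 the number was 100.

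**Figure D5:**
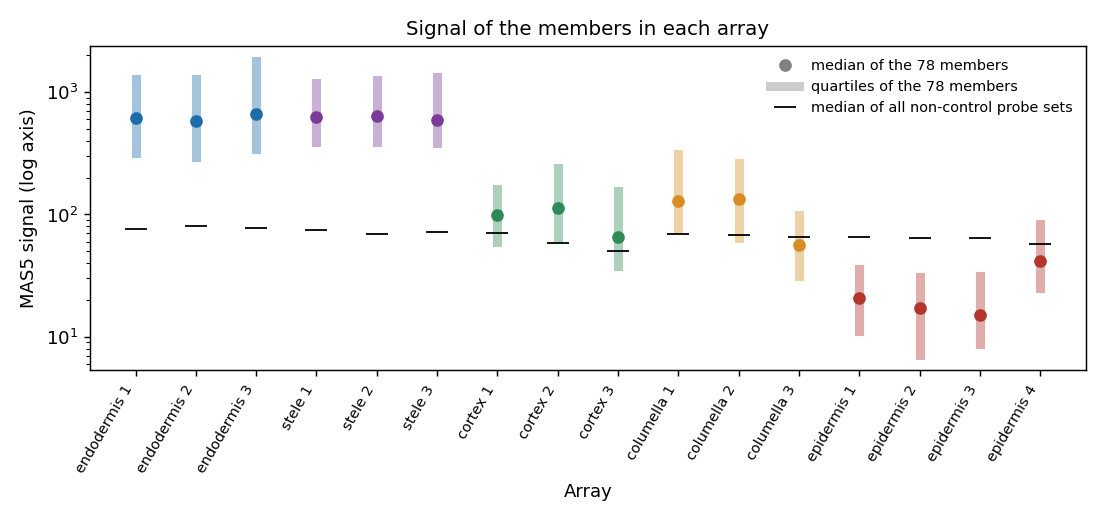
Median signal (points) and quartiles (bars) of the 78 members in each of the 16 arrays on a log axis, with a dash at the median of all probe sets of that array. Member medians were 576.2 to 659.1 in endodermis arrays and 591.9 to 640.7 in stele arrays, and epidermis replicate 4 (41.7) and columella replicate 3 (56.6) lay apart from their groups.

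Arrays of endodermis and stele were alike in this respect, with member medians of 614.3, 576.2 and 659.1 in endodermis and 620.6, 640.7 and 591.9 in stele. The median coefficient of variation of the members was 19.2% in endodermis and 21.1% in stele, against 16.3% and 18.5% for all probe sets at 200 or more in both. The highest were 51.6% in endodermis and 86.5% in stele.

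The members were also set beside 13 lists with 173 loci on endodermal identity, suberin, vascular and phloem development, lateral root initiation, transport of ions, iron and water, hormones, the stem cell niche and the cell cycle. The annotation named only 17 of these loci, all tested, of which 4 were higher in endodermis than in stele, 3 were lower and 10 did not pass. LBD16, in the list for pericycle and lateral root initiation, was the only member among them. LBD29, a relative of LBD16 in the same list, had means of 58.8 in endodermis and 59.6 in stele and stayed below the signal minimum. None of the loci listed for suberin, phloem, xylem loading, aquaporins or auxin transport was named, so these lists say nothing about the members.

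Of the listed genes that passed, GSO1 averaged 5445 in endodermis against 645.2 in stele (log2 difference 3.10, adjusted p = 7.16e-06). JKD, a zinc finger protein of ground tissue patterning, averaged 196.0 in endodermis against 19.4 in stele (log2 difference 3.02, adjusted p = 0.000206). AT1G61590, listed with endodermal fate and the Casparian strip, averaged 6265 in endodermis against 644.9 in stele (log2 difference 3.39, adjusted p = 1.69e-05). AGL42, a MADS-domain gene used as a quiescent center marker, was also higher in endodermis, by 1.66 log2 units. PHV, a class III homeodomain leucine zipper factor of vascular patterning, averaged 76.5 in endodermis and 352.1 in stele, and AT1G47400, in the list on internal iron transport, 51.5 in endodermis and 243.5 in stele, with log2 differences of -2.03 and -2.06. AT4G34600, also listed with endodermal fate and the Casparian strip, averaged 182.4 in endodermis and 435.3 in stele. It had a log2 difference of -1.20 and came closest to the rule among these, with a ratio of 2.60.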

How the data were processed

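RNA of sorted root cells was measured on 16 Affymetrix arrays, with 1 sample each. The deposited intensity values are linear MAS5 signals made by the authors (named in the submitters' processing notes), with the MAS5 version not given in the sources used here. The deposited scaling was kept, and 64 control probe sets of 22810 were left out. No label states that replicates were separate cultures or sorts. The p-values then cover only the spread of these samples, which may be technical. The number of arrays and the signal above background limit the precision.

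A probe set was tested when 3 or more of its arrays reached 38.05, the 40th percentile of the table, as 16221 did. A mean per population was fitted to log2(signal + 10.21), the constant being the 20th percentile, with limma 3.58.1 in R 4.3.3 (eBayes with a trend on intensity), leaving 11 residual degrees of freedom. The tests were 2-sided and adjusted by Benjamini and Hochberg over all tested probe sets of a comparison, at 0.05. Log2 differences are on that scale and understate changes at low signal. The script was tested on simulated data. Python 3.11.15 with matplotlib 3.10.9 drew the figures.

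The members and lists were chosen with earlier results of these data known. Gene names came from an annotation of the array, updated by locus tag from RefSeq (TAIR10.1). The files name no genome build, so no coordinates are given. The named genes are members with a symbol that had the 10 highest ratios, the 8 largest called differences each way between endodermis and stele without overlap, the 4 smallest differences, those in a list, and the 3 nearest the ratio threshold on each side. Because this left few genes, the same rule was also applied to members with 1 gene known by locus tag, a widening made after the annotation was seen. Other probe sets named, neighbours, listed genes with calls and cortex against columella calls were chosen after their values were seen. Alternatives were other thresholds of the rule, quantile normalization, other constants and filters, array weights, eBayes with no trend, a block for the replicate number and leaving out each array.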

Additional observations from a re-analysis of the deposited data

Results flagged for a closer look

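Of the 31 named members, 6 had an epidermis array whose gap to the nearest other array exceeded Dixon's 95% limit, taken as a share of the range of the 4 epidermis arrays, and in each it was replicate 4 as the highest. The signals there were 93.8 for RALFL32, 19.2 for AT4G24060, 105.8 for AT4G11210, 20.1 for AT1G69080, 87.7 for AT4G33420 and 147.2 for AT2G44300. Chance alone marks about 1 in 20 groups of this kind when their values are independent and normally distributed. Over all 78 members 19 were marked, 18 of them at epidermis replicate 4. The members share the same 4 epidermis arrays, and many of their signals there are near background. The share marked over all probe sets was not computed, so nothing is read from the count.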

How the results depend on the processing

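The number of members followed the thresholds of the rule: it was 38 at a signal minimum of 500, 189 at a ratio minimum of 2 and 12 at a ratio minimum of 5. The share of the 78 still chosen was 48.7% at a signal minimum of 500, 15.4% at a ratio minimum of 5, 89.7% after quantile normalization and 82.1% with medians over arrays. Leaving out each array gave 56 to 100 members and kept 70.5% to 100% of the 78, and 34 were chosen in every such run. Of the members, 8 were called between endodermis and stele with a constant of 1 and 25 with 50. Over all probe sets 2090 were then higher and 2365 lower with 1, and 2600 and 2621 with 50. When an array was left out, 8 to 16 members were called between endodermis and stele. The cause of these changes was not tested. For cortex minus columella 19 were called with array weights and 7 to 20 when an array was left out. Leaving out an array gave 3432 to 5536 probe sets called between endodermis and stele, 58 to 70 members called in cortex minus epidermis and 57 to 70 in columella minus epidermis. Of the 14 members called between endodermis and stele, 5 were called in all 24 other settings. For endodermis minus stele, the comparison counted here, no called difference of the 31 named members changed sign in these settings. Over these members and settings 709 values stayed on their side of the threshold, 30 fell short of it and 5 passed it newly.

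Arrays with the same replicate number had correlations of deviations from -0.26 to 0.24. Those of arrays with different numbers ran from -0.37 to 0.36. The values thus show no pairing by number, but deviations from the means of so few arrays cannot exclude it. With the replicate number as a block 19 members were called between endodermis and stele, 70 in cortex minus epidermis, 16 in cortex minus columella and 69 in columella minus epidermis. Over all probe sets, 2589 were then higher and 2748 lower in endodermis minus stele, and 3787 and 4760 in cortex minus epidermis. In cortex minus columella these were 3701 and 4696, and in columella minus epidermis 3957 and 3924. Only the epidermis has a replicate 4, so the block also takes that array out of the comparisons with the epidermis. Under the block AT2G04795 passed for endodermis minus stele (adjusted p = 0.0404). Signals near background limit the comparisons with the epidermis.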
